A study of Mus musculus with 4 samples.

Results

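The data describe the nuclear-encoded subunits of the mitochondrial respiratory chain in mouse early blastocysts of 2 kinds: embryos from in vitro fertilization (IVF), and embryos from somatic cell nuclear transfer (SCNT), where the nucleus of a body cell takes the place of the oocyte's own. Members were taken by symbol alone, as rows that begin with Ndufa, Ndufb, Ndufc, Ndufs, Ndufv, Uqcr, Cox4, Cox5, Cox6, Cox7, Cox8 or Atp5, together with Sdha, Sdhb, Sdhc, Sdhd, Cyc1 and Cycs. Assembly factors named Ndufaf were left out. This gave 88 of 23235 gene symbols: 36 of complex I, 4 of complex II, 9 of complex III, 21 of complex IV, 17 of complex V, and Cycs, which encodes cytochrome c. Ndufa4 and its relative Ndufa4l2 were counted with complex IV, where the Ndufa4 protein is now placed. The prefixes also took in rows that are not subunits: Cox4nb is an older symbol of Emc8, part of a membrane protein insertase of the endoplasmic reticulum, and Cox7a2l encodes a factor of respiratory supercomplexes. Atp5s and Atp5sl, counted with complex V, are older symbols of Dmac2l and Dmac2, and Atp5sl is not a subunit either.

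Complexes I and II pass electrons from NADH and succinate to ubiquinone, complex III passes them to cytochrome c, and complex IV, cytochrome c oxidase, passes them to oxygen. Complexes I, III and IV pump protons, and complex V, the ATP synthase, uses the returning protons to make ATP. The mitochondria of the early mouse embryo come from the oocyte, and oxygen consumption is known to be highest at the blastocyst stage among preimplantation stages.

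Each group had 2 libraries, each from a pool of 6 embryos collected 96 hours past fertilization or activation. IVF joined Xist knockout oocytes of 129S1/Svj background with wild-type CAST/EiJ sperm. For SCNT, donor nuclei came from embryonic fibroblasts, heterozygous for the Xist knockout, whose mothers were of 129S1/SvImj background and whose fathers were CAST/EiJ, and recipient oocytes came from B6D2F1/J (BDF1) females. Both groups therefore carried the Xist knockout allele. The strain of the oocyte, the source of the embryo's mitochondria, differed between the groups and cannot be told apart from the way the embryos were made. Kdm4d, a histone demethylase gene, is named in the column headers of the SCNT files, and whether these embryos received it is not stated by them. The labels do not say whether libraries of a group had different parents, or whether libraries of the same number shared a day; the p-values thus reflect only library-to-library spread, which may be technical.

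Values are FPKM, a fragment count scaled to transcript length and to the library's mapped total, a unit inferred from the files. They summed to between 933167 and 985197 per library, and between 10802 and 10923 genes reached 1 FPKM. No fragment counts are given, so the counting error is unknown. Libraries 1 of both groups had 6527 (IVF) and 6505 (SCNT) genes listed at 0, against 5716 and 5212 in libraries 2, so the libraries also differed by number. Trophectoderm markers (7 of 7 above 1 FPKM on average, summed level 3577 to 5971 FPKM) and inner cell mass markers (6 of 6, 300.2 to 372.7 FPKM) were present in all libraries. Some lineage markers were higher in SCNT without overlap and with an unadjusted p under 0.05 (limma), though none passed adjustment. They were 3 of 7 of the trophectoderm and 2 of 5 of the primitive endoderm (summed level 189.1 and 125.9 FPKM in IVF, 189.8 and 178.3 in SCNT). Of all tested genes, 18.3% were higher without overlap and 4.25% were higher at that p. Elf5, a trophectoderm factor, had 3.23 and 3.88 FPKM in IVF, 17.9 and 9.498 in SCNT. The other trophectoderm factors among these 3 were Eomes (18.8 and 14.2, then 43.5 and 24.4 FPKM) and Cdx2 (19.96 and 21.7, then 36.6 and 29.5 FPKM). Those of the primitive endoderm were Sparc (35.2 and 27.9, then 63.1 and 80.1 FPKM) and Gata4 (6.59 and 5.09, then 9.77 and 9.18 FPKM). Tfap2c of the trophectoderm was lower in SCNT within both library numbers (47.5 and 36.9, then 39.2 and 33.3 FPKM). So was Gata6 of the primitive endoderm (132.7 and 81.8, then 101.9 and 74.9 FPKM). Of the inner cell mass, Tdgf1 was higher without overlap (54.7 and 39.1, then 90.2 and 61.5 FPKM). Limma differences, SCNT minus IVF, were below 0 for 1 of 7 trophectoderm, 2 of 5 primitive endoderm and 4 of 6 inner cell mass markers. The part of cell makeup in the results below was not tested. Of 7 fibroblast markers, 6 averaged under 1 FPKM, and their summed level was 1.88 and 0.513 FPKM in IVF against 5.66 and 0.425 in SCNT. All 6 cumulus and granulosa markers averaged under 1 FPKM, and Amh and Cyp19a1 were at 0 throughout. MicroRNA and small nucleolar or Cajal body RNA genes took 12.4% and 12.2% of summed FPKM in IVF and 9.505% and 9.73% in SCNT, and their part in the results below was tested only by rescaling. In pooled embryos, fewer cells of a type and less RNA per cell cannot be told apart.

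Transcripts of the respiratory chain were abundant in these blastocysts. Its 88 members took 6.28% and 7.71% of all FPKM in IVF libraries 1 and 2, and 7.55% and 8.21% in SCNT libraries 1 and 2. Averaged over the 4 libraries, 28 members lay at 1000 FPKM or more, 46 between 100 and 1000, 7 between 10 and 100, 3 between 1 and 10, and 4 under 1 FPKM. The median level of the 84 members that averaged at least 1 FPKM was 557 FPKM in IVF, against 10.2 FPKM for all 11039 genes that did. Most members are short transcripts (median length 913 bases, against 2903 for the 10288 tested genes with a length), and FPKM of short transcripts is the less certain.

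**Figure D1:**
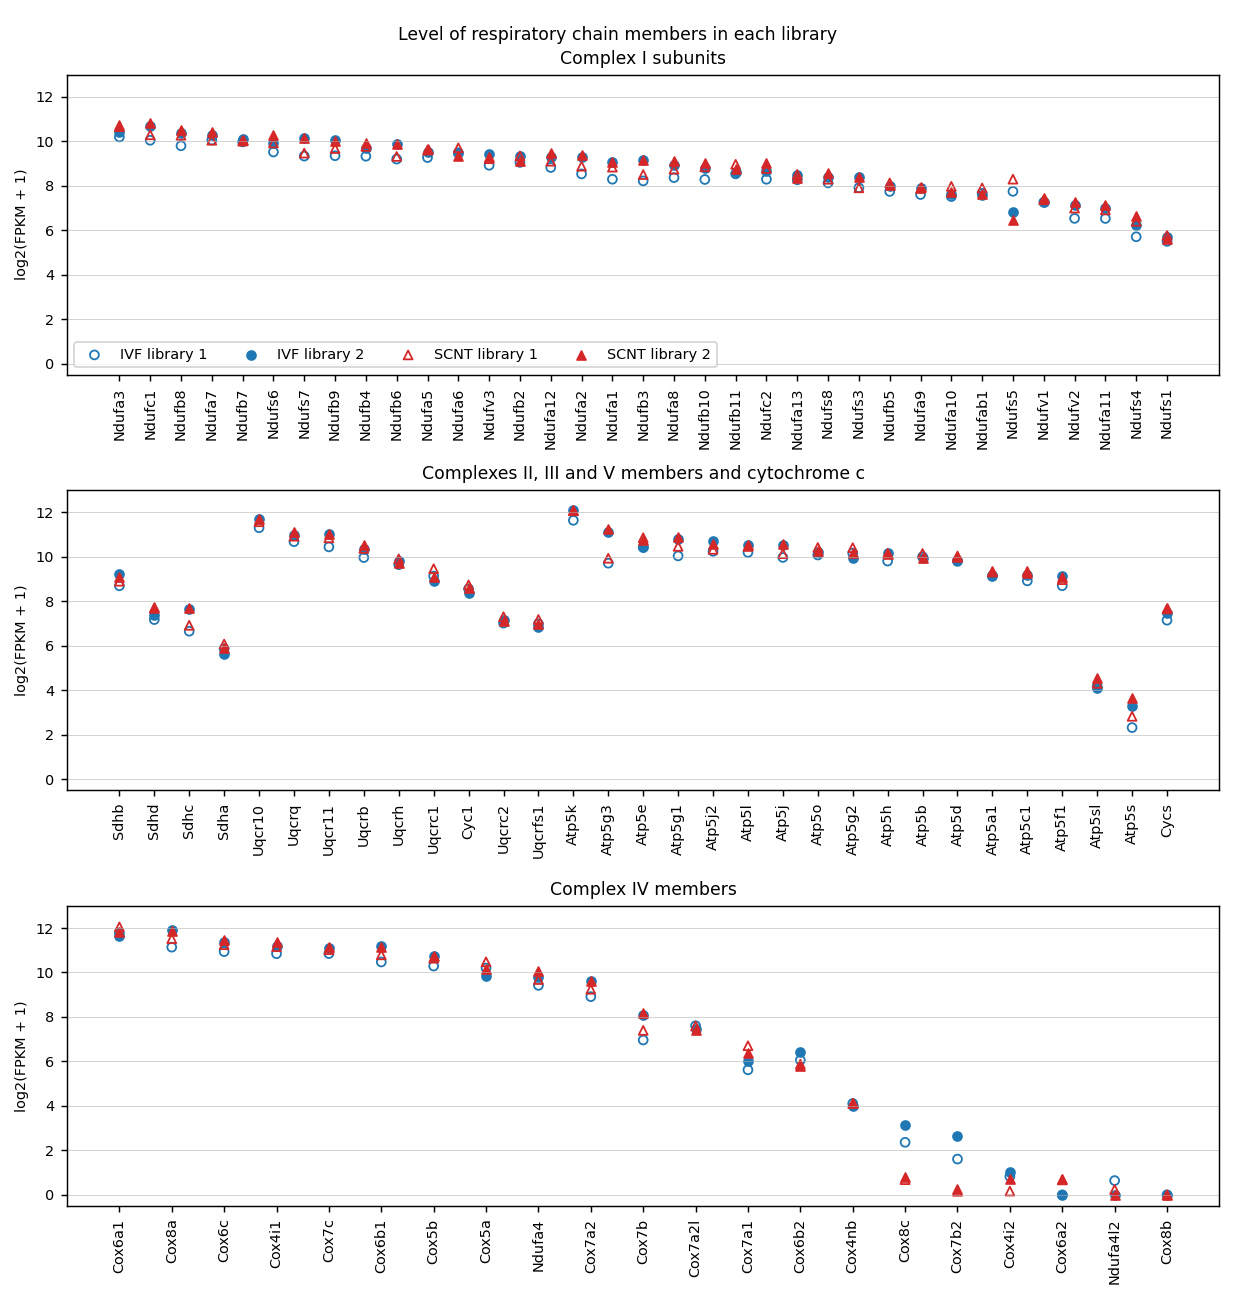
Level of 87 of the 88 members in each of the 4 libraries, as log2(FPKM + 1), ordered by mean level within complex. Most members lie at similar heights in all 4 libraries, with IVF library 1 often lowest, while Cox8c and Cox7b2 of complex IV are lower in both SCNT libraries.

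The 84 members averaging at least 1 FPKM were compared between SCNT and IVF with limma on log2(FPKM + 1), as SCNT minus IVF. None passed at a Benjamini-Hochberg adjusted p under 0.05 over all 11039 genes, where 0.127% of genes did, 0.0725% higher and 0.0544% lower in SCNT; the lowest adjusted p among members was 0.224. At an unadjusted p under 0.05 were 3 members (all genes: 7.09%), of which 1 was higher (all genes: 4.25%) and 2 were lower (all genes: 2.84%). The 2 lower members, Cox8c and Cox7b2, reached the filter of 1 FPKM only through the IVF libraries, so their p-values are no support for a difference. The direction of the estimates was lopsided all the same: 77 of the 84 members had a fitted difference above 0, as did 52.2% of all tested genes, and 7 lay below 0 (all genes: 47.8%). The median difference of the members was 0.19, beside 0.01 for all tested genes and 0.04 for the 1164 other genes at 100 FPKM or more. Of the 77, 75 lay under 0.5 on the log2 scale, and the median standard error of a member's difference was 0.24. Both SCNT libraries exceeded both IVF libraries in 26 members (all genes: 18.3%), and both were below in 3 (all genes: 15.1%). Those 3 include Cox8c and Cox7b2.

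The shift was larger between the libraries numbered 1. Its median was 0.28 for SCNT 1 minus IVF 1 and 0.08 for SCNT 2 minus IVF 2, and 55 of 84 members were higher in SCNT within both numbers (all genes: 33.8%) and 5 were lower within both (all genes: 30.1%). IVF library 1 was the lowest of the 4 libraries for 63 of the 84 members, as it was for 25.8% of all tested genes. Without IVF library 1 the median fell to 0.0096, below the 0.03 of all tested genes in the same fit, and without IVF library 2 it was 0.34. The size of the shift thus depended on which IVF library was kept. Leaving out a library also unbalances the library numbers, by which 53 members were higher in libraries 2 of both groups; between libraries 2 alone the median of 0.08 stood beside 0.02 for all tested genes. With each library rescaled without the short RNA genes the median was 0.13, against -0.03 for all genes.

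**Figure D2:**
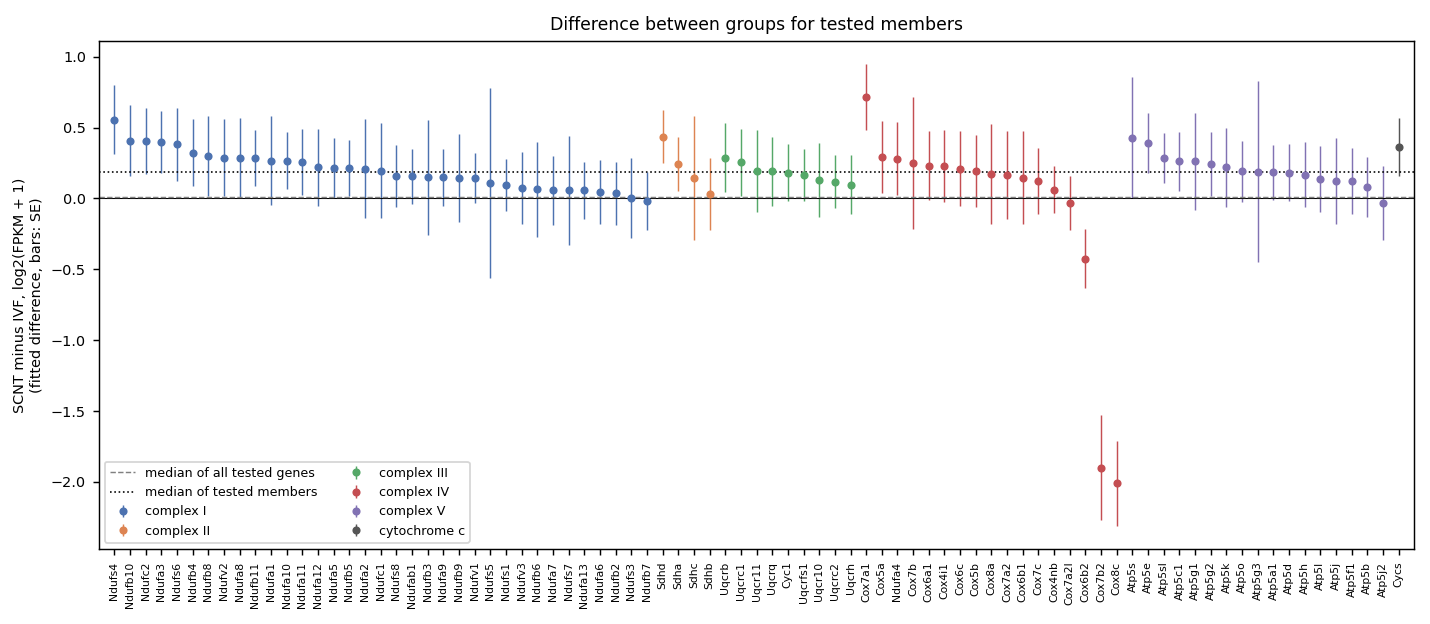
Fitted SCNT minus IVF difference on the log2(FPKM + 1) scale for 83 of the 84 tested members, by complex, with bars for the standard error (2 libraries per group). Points sit near the dotted member median of 0.19, slightly above the dashed median of all genes, except Cox7a1 above and Cox6b2, Cox7b2 and Cox8c below.

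Median differences by complex were 0.18 for the 36 tested members of complex I, 0.19 for the 4 of complex II, 0.18 for the 9 of complex III, 0.17 for the 17 of complex IV and 0.19 for the 17 of complex V. With quantile normalization they ran from 0.04 (complex IV) to 0.16 (complex II), and without IVF library 1 those of complexes IV (-0.0043) and V (-0.0081) were below 0. Summed FPKM of complex I was 15924 and 21166 in IVF and 19590 and 22563 in SCNT. That of complex IV was 16878 and 21412 in IVF and 20748 and 22721 in SCNT. In all complexes the sums had IVF library 1 lowest, and the mean of SCNT was between 1.09 times (complex II) and 1.14 times (complex I) that of IVF. Between the 2 IVF libraries the same sums differed by a factor of 1.26 (complex III) to 1.42 (complex II), which exceeds the difference between groups.

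In complex I, which oxidizes NADH, 34 of 36 members had estimates above 0 and none passed. Ndufs4, an accessory subunit whose loss in mice models Leigh syndrome, had the smallest unadjusted p of the complex. It was listed at 51.1 and 73.1 FPKM in IVF against 83.2 and 98.2 in SCNT, so that the groups did not overlap (difference 0.56 ± 0.24 SE, limma adjusted p = 0.773). Ndufc2, a membrane-arm subunit, had 312 and 410 FPKM in IVF against 437 and 514 in SCNT (0.41 ± 0.23), again without overlap. Ndufa3, a small accessory subunit and the most abundant member of the complex by its mean over the 4 libraries, had 1170 and 1353 FPKM in IVF against 1604 and 1708 in SCNT (0.40 ± 0.22). Ndufc1, next by that mean but higher than Ndufa3 in libraries 2 of both groups, overlapped, at 1054 and 1644 FPKM in IVF against 1250 and 1821 in SCNT.

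The 7 nuclear-encoded core subunits, which hold the flavin and iron-sulfur centres or the ubiquinone site, had a median difference of 0.09, beside 0.21 for the 29 accessory subunits; the difference between these medians was not tested. Ndufb7, an accessory subunit of the membrane arm, was listed at 1003 and 1101 FPKM in IVF against 1026 and 1050 in SCNT (-0.02 ± 0.21). Its groups overlapped.

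Complex II, succinate dehydrogenase, is also an enzyme of the citric acid cycle and is encoded wholly in the nucleus. Sdhd, a membrane anchor, had 144 and 165 FPKM in IVF against 204 and 213 in SCNT (0.43 ± 0.19, limma adjusted p = 0.766), with both SCNT libraries above both IVF libraries. Sdha, the flavoprotein that binds succinate, had 57.5 and 48.6 FPKM in IVF against 66.6 and 59.1 in SCNT (0.24 ± 0.19), also without overlap. Sdhb, the iron-sulfur subunit, had 415 and 598 FPKM in IVF against 478 and 541 in SCNT, so that IVF enclosed SCNT. Sdhc, the other anchor, was higher in libraries 2 of both groups: 99.8 and 203 FPKM in IVF against 120 and 206 in SCNT.

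In complex III and the cytochrome c it reduces, all 9 members and Cycs had estimates above 0, and 3 of the 9 were higher in SCNT without overlap, on few genes and beside 18.3% of all genes. Cyc1, cytochrome c1, had 376 and 336 FPKM in IVF against 427 and 382 in SCNT (0.18 ± 0.20). Cycs had 141 and 178 FPKM in IVF against 201 and 209 in SCNT (0.37 ± 0.20, limma adjusted p = 0.884). The core protein gene Uqcrc1 overlapped between groups, at 562 and 475 FPKM in IVF against 707 and 538 in SCNT. Uqcrb, a small ubiquinone-site subunit, had 1001 and 1316 FPKM in IVF against 1332 and 1472 in SCNT (0.29 ± 0.24). The most abundant members by their mean over the 4 libraries were Uqcr10 and Uqcrq, both overlapping. Uqcr10 had 2536 and 3373 FPKM in IVF against 3058 and 3354 in SCNT, and Uqcrq 1644 and 2047 against 1947 and 2253.

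In complex V, the ATP synthase, 16 of 17 members, Atp5s and Atp5sl included, had estimates above 0, and 7 were higher in SCNT without overlap (all genes: 18.3%). Atp5e, the epsilon subunit of the central stalk, had 1372 and 1375 FPKM in IVF against 1859 and 1744 in SCNT (0.39 ± 0.21, limma adjusted p = 0.874). Atp5c1, the gamma subunit that turns inside the catalytic head, had 483 and 579 FPKM in IVF against 649 and 622 in SCNT (0.26 ± 0.21). Atp5sl, which despite its symbol is not a subunit of the synthase, had 17.1 and 16.1 FPKM in IVF against 18.8 and 22.3 in SCNT. Atp5k, the e subunit of the membrane part, had 3198 and 4438 FPKM in IVF against 4308 and 4463 in SCNT. Its mean over the 4 libraries was the highest of all members, though Cox6a1 was higher in IVF library 1. The estimate below 0 was that of Atp5j2, the f subunit (-0.03 ± 0.26).

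The genes Atp5g1, Atp5g2 and Atp5g3 encode the same mature c subunit of the proton-driven ring behind different targeting peptides, and their reads and those of processed copies could be shared. Their sum was divided by library number rather than by group. Atp5g3 took 27.6% of it in IVF library 1 and 26.03% in SCNT library 1, but 44.4% and 44.6% in libraries 2. Atp5g2 took 37.8% and 36.3% in libraries 1 and 19.8% and 21.1% in libraries 2 (IVF and SCNT in turn). Atp5g1 took between 34.4% and 37.7% in all libraries. In FPKM, Atp5g3 was listed at 839 and 2214 in IVF and at 979 and 2469 in SCNT.

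**Figure D3:**
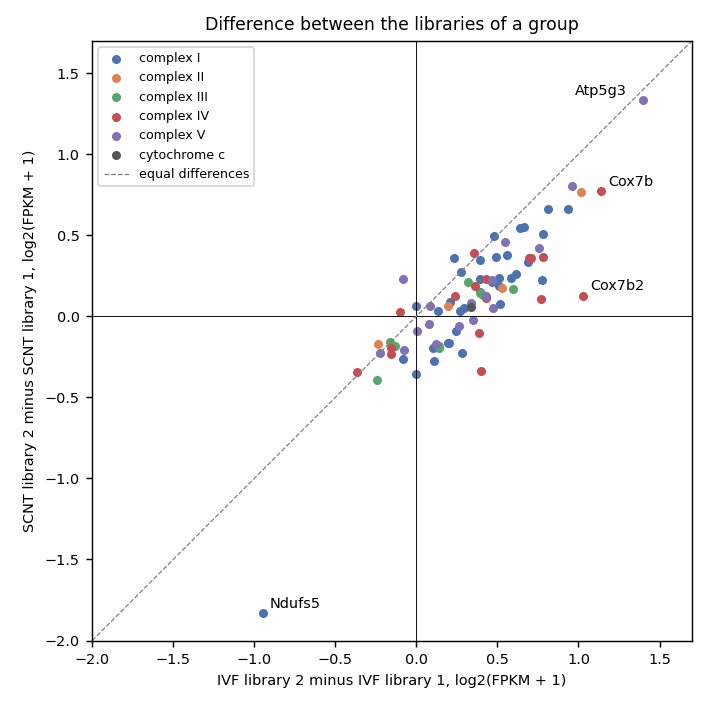
Library 2 minus library 1 on the log2(FPKM + 1) scale for 83 of the 84 tested members, in IVF on the x axis and SCNT on the y axis, coloured by complex. Most points lie right of 0 and below the dashed line of equal differences, with Atp5g3 at the upper end and Ndufs5 at the lower.

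Much of the chain also differed by library number, beside its shift between the groups. Of the 84 members, 53 were higher in library 2 than in library 1 in both groups (all genes: 33.3%), and 13 were lower in both (all genes: 39.6%). The median of library 2 minus library 1 was 0.36 in IVF and 0.12 in SCNT, against -0.04 and -0.02 for all tested genes. Beside Atp5g3, the complex IV gene Cox7b was higher in libraries 2, at 124 and 274 FPKM in IVF against 168 and 287 in SCNT. Ndufs5, a complex I accessory subunit, went the other way, at 214 and 110 FPKM in IVF against 313 and 87.4 in SCNT. Cox7b and Ndufs5 were chosen after their values were seen.

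Complex IV held the members that departed most from the rest. Several of its small subunits exist as a common form and a tissue form, among them Cox4i2 (known from lung), Cox6a2, Cox7a1 and Cox8b (heart and skeletal muscle), and Cox6b2, Cox7b2 and Cox8c (testis). Cox8c was listed at 4.14 and 7.77 FPKM in IVF against 0.605 and 0.731 in SCNT. Its difference was -2.01 ± 0.30 (SE), with no overlap between groups, an unadjusted p of 0.00104 and a limma adjusted p of 0.224. Cox7b2 was listed at 2.05 and 5.21 FPKM in IVF against 0.116 and 0.218 in SCNT (-1.90 ± 0.37, unadjusted p = 0.00353, limma adjusted p = 0.320). Both genes reached the filter of 1 FPKM only through the IVF libraries. A gene kept in that way had to differ between groups, so its p-values are no support for the difference. This holds also for the fit without IVF library 1, the only one of the 4 exclusions with an adjusted p under 0.05 (limma, 0.0257 for Cox8c and 0.0298 for Cox7b2), where 1 IVF library stood against 2 SCNT libraries. Without IVF library 2, Cox8c had an adjusted p of 0.138 and Cox7b2 was under the filter. The sizes depend on the pseudocount: with 0.1 in place of 1 the differences were -2.92 for Cox8c and -3.69 for Cox7b2, and with 5 they were -0.93 and -0.72.

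Cox6b2, a form of the subunit that joins the monomers of the oxidase dimer, was the most abundant testis form, at 65.6 and 86.0 FPKM in IVF against 57.8 and 53.6 in SCNT. Both SCNT libraries were below both IVF libraries, while the difference of -0.43 ± 0.21 did not pass (limma adjusted p = 0.839). Cox7a1 went the other way, with 48.2 and 63.8 FPKM in IVF against 103 and 81.6 in SCNT (0.72 ± 0.23, unadjusted p = 0.0268, limma adjusted p = 0.574). Without overlap in either case, the difference of Cox7a1 was 1.08 between libraries 1 and 0.35 between libraries 2. Of the members under the filter, Cox4i2 was listed at 0.773 and 1.06 FPKM in IVF against 0.124 and 0.659 in SCNT. Cox6a2 was listed at 0 in both IVF libraries and at 0.592 and 0.649 FPKM in SCNT, Cox8b at 0 in all 4 libraries, and Ndufa4l2 at 0.560 and 0 FPKM in IVF against 0.181 and 0 in SCNT.

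In the Cox6b, Cox7b and Cox8 sets the common form supplied at least 95.6% of the sum in each library, while Cox7a2 supplied 66.6% to 76.65% of its set. Cox8c took 0.183% and 0.200% of the summed Cox8 level in IVF and 0.0206% and 0.0193% in SCNT, and Cox8a took the rest, at 2254 and 3878 FPKM in IVF against 2933 and 3787 in SCNT. Cox7b2 took 1.63% and 1.87% of the sum with Cox7b in IVF and 0.0692% and 0.0760% in SCNT. Cox6b2 took 4.42% and 3.57% of the Cox6b sum in IVF and 3.15% and 2.30% in SCNT, beside Cox6b1 at 1420 and 2323 FPKM in IVF against 1774 and 2279 in SCNT. Cox7a1 took 6.67% and 6.27% of the sum with Cox7a2 and Cox7a2l in IVF and 11.5% and 7.93% in SCNT. Shares within a library do not depend on scaling between libraries.

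**Figure D4:**
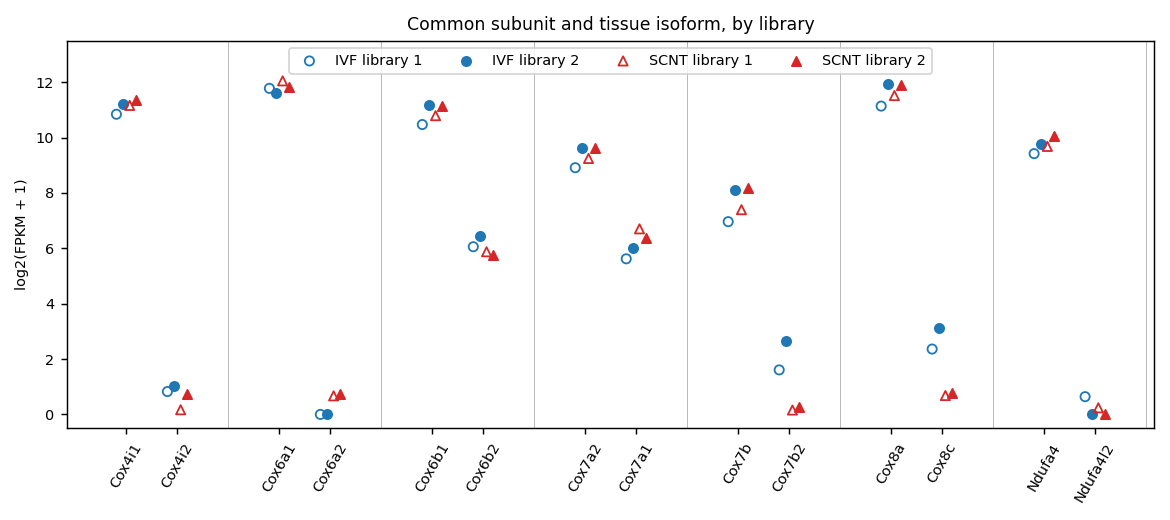
Common subunit (left of each pair) and tissue form (right) of complex IV in each library, as log2(FPKM + 1). Each tissue form lies below its common form, and Cox7b2 and Cox8c lie under 1 on this scale in both SCNT libraries but above 1 in both IVF libraries.

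Of the 13 tested complex IV rows other than the tissue forms, Cox4nb and Cox7a2l included, 12 had estimates above 0, with a median of 0.19. Cox4i1, one of the first nuclear-encoded subunits to join in assembly, had 1838 and 2365 FPKM in IVF against 2292 and 2609 in SCNT. Cox6a1 had 3517 and 3150 FPKM in IVF against 4240 and 3602 in SCNT, without overlap (0.23 ± 0.25). It was the most abundant by its mean over the 4 libraries, though below Cox8a in libraries 2 of both groups. Cox5a had 1174 and 911 FPKM in IVF against 1427 and 1124 in SCNT (0.29 ± 0.26), and Ndufa4 had 685 and 877 FPKM in IVF against 821 and 1077 in SCNT (0.28 ± 0.26), both overlapping. Cox7a2 was higher in libraries 2 than in libraries 1, at 481 and 780 FPKM in IVF against 606 and 780 in SCNT. Cox7a2l, the exception below 0, had 194 and 174 FPKM in IVF against 192 and 168 in SCNT (-0.03 ± 0.19).

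**Figure D5:**
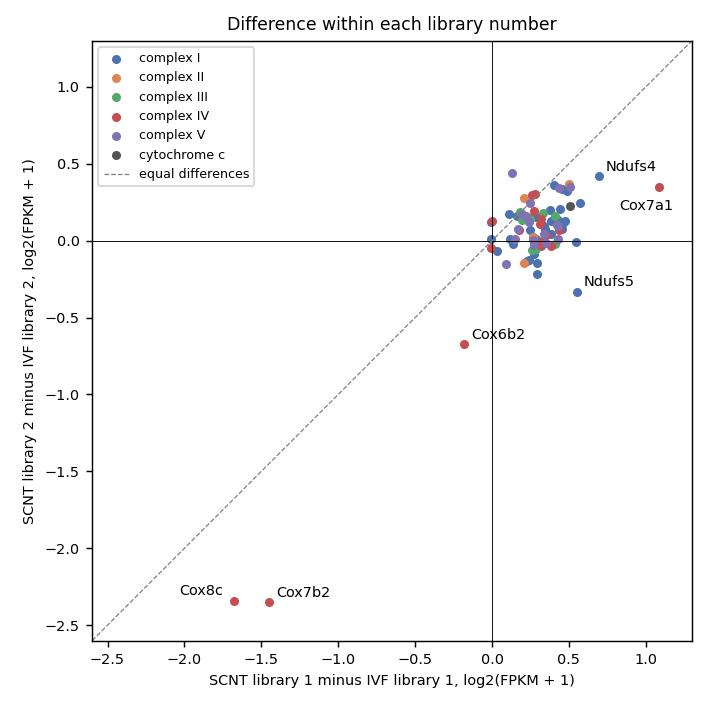
SCNT minus IVF on the log2(FPKM + 1) scale for 83 of the 84 tested members, between libraries 1 on the x axis and between libraries 2 on the y axis, coloured by complex. Most points lie right of and below the dashed line of equal differences, since the shift is larger between libraries 1, while Cox8c and Cox7b2 are far below 0 in both.

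The 250 bases upstream of the annotated start are shown for the common and the testis form of subunits 6b and 7b, the pairs with a lower testis form for which both sequences were in the table. They are from RefSeq on GRCm38.p6, a later build than the mm9 of the expression values, and were matched by symbol for 71 of the 88 members, Cox8c not among them. Capitals mark the motifs searched on both strands: NRF1 (its palindromic consensus), ETS (CCGGAAG), YY1 (ATGGCGG), the TATA box (TATAAA) and the CCAAT box (CCAAT). NRF1 and the ETS factor GABP are known regulators of respiratory chain genes. The windows are chr7:30626115-30626364 (minus strand) for Cox6b1, chr7:4753095-4753344 (minus) for Cox6b2, chrX:106015450-106015699 (plus) for Cox7b and chr5:71548206-71548455 (minus) for Cox7b2.
Cox6b1: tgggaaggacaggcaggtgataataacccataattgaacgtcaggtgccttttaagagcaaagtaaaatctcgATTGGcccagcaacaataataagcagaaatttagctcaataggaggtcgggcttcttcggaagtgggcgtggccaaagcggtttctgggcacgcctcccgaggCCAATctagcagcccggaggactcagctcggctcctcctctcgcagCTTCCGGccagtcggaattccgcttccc
Cox6b2: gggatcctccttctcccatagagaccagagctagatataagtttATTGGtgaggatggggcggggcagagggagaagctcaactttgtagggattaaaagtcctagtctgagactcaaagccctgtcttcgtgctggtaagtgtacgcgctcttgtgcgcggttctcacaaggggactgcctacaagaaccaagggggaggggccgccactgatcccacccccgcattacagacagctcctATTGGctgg
Cox7b: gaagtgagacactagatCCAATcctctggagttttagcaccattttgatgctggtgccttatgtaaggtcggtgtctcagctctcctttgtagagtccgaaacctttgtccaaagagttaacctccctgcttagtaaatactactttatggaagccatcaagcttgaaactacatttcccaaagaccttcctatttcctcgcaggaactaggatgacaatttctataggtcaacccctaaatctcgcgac
Cox7b2: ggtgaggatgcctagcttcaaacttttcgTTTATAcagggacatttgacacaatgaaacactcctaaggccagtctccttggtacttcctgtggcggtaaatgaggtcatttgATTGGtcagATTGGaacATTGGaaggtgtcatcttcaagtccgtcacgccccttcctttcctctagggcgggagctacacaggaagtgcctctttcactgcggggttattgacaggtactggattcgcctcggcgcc

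These windows hold 14 CG dinucleotides for Cox6b1, 8 for Cox6b2, 5 for Cox7b and 9 for Cox7b2. The ETS letters occur in that of Cox6b1, the TATA letters in that of Cox7b2, and CCAAT in all 4. Over the full windows, which run 50 bases past the start, NRF1 letters were found in 22.5% of the 71 matched member promoters (16 genes), in 11.4% of the 8659 matched promoters of tested genes and in 4.78% of all 27025 promoters. ETS letters were found in 21.1%, 20.3% and 9.12%, and YY1 letters in 14.1%, 9.15% and 4.19% of the same sets. TATA letters were in 9.86%, 6.72% and 14.2%, and CCAAT in 45.1%, 39.8% and 37.9%. Of the 4 tissue forms with a window (Cox6b2, Cox7a1, Cox7b2 and Cox8b), none held NRF1, ETS or YY1 letters and 2 held TATA letters. A match is only a match of letters. The 84 tested members lie on 19 chromosomes, 3 of them (Cox7b, Ndufa1 and Ndufb11) on the X, with a median difference of 0.27 on the X and 0.18 elsewhere. The sex of the embryos was not examined and may differ between the groups by their design. Its part in these medians was not tested and could not be told apart from the way the embryos were made.

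The 4 lists of other genes around the pathway had medians between 0.04 and 0.10. The median of all tested genes was 0.01, with 52.2% of them above and 47.8% below 0. Of 47 assembly factors searched by symbol, which build the complexes but are not part of them, 29 had a row and were tested. Of these 29, 17 had estimates above and 12 below 0 (median 0.09). None passed, and 1 had an unadjusted p under 0.05 in limma (all genes: 7.09%). Nubpl, an iron-sulfur carrier for complex I, had 14.01 and 15.2 FPKM in IVF against 20.4 and 26.2 in SCNT (0.63, limma adjusted p = 0.551). Acad9, another complex I factor, had 10.7 and 8.71 FPKM in IVF against 13.3 and 13.8 in SCNT (0.44). The 9 tested complex I factors had a median of 0.30 and the 12 complex IV factors one of 0.02, a difference that was not tested.

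Of 17 tested genes of mitochondrial biogenesis, 12 lay above and 5 below 0 (median 0.04) and none passed. At an unadjusted p under 0.05 in limma was 1 of them (all genes: 7.09%). Tfb1m, which methylates mitochondrial ribosomal RNA, had 9.36 and 13.3 FPKM in IVF against 17.1 and 18.7 in SCNT (0.63, limma adjusted p = 0.621). Mterfd2, of the mitochondrial transcription termination factor family, had 7.97 and 7.38 FPKM in IVF against 10.3 and 8.80 in SCNT. Of 19 genes of the citric acid cycle and pyruvate entry, 12 lay above and 7 below 0 (median 0.06) and none passed. The smallest unadjusted p in that list were those of Brp44l, a mitochondrial pyruvate carrier gene (-0.27), and Dlat, of pyruvate dehydrogenase (0.20).

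Of 15 tested carriers, uncouplers and related genes, 10 lay above and 5 below 0 (median 0.10) and none passed. At an unadjusted p under 0.05 in limma was 1 of them (all genes: 7.09%). Etfdh, which feeds electrons from fatty acid oxidation to ubiquinone, had 9.44 and 10.5 FPKM in IVF against 15.0 and 15.6 in SCNT (0.58, limma adjusted p = 0.524). Slc25a31, the ADP/ATP carrier of testis, had 1.304 and 6.72 FPKM in IVF against 0.657 and 0.681 in SCNT (-1.34, limma adjusted p = 0.767). It too reached the filter only through IVF, by library 2: the difference was -0.48 between libraries 1 and -2.20 between libraries 2, the adjusted p without IVF library 1 was 0.0367, and without IVF library 2 the gene was under the filter. The 13 subunits encoded by mitochondrial DNA had no row under any of the 26 names searched, so they could not be analysed.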

How the data were processed

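RNA-seq values of 4 libraries, grouped by title into 2 IVF and 2 SCNT, were used as deposited. Per the labels' protocols, cDNA from directly lysed embryos was amplified (SMARTer Ultra Low Input), sheared and made into libraries (NEBNext Ultra DNA). Per the submitters' processing notes, the tools were Cufflinks 2.2.1, TopHat2 2.0.14 and Bowtie2 2.1.0, and the build was mm9. The deposited values were taken to be FPKM, inferred from the Cufflinks note, the identifier header and the values; their annotation, strandedness and scaling are not stated there. FPKM divides shared reads between near-identical genes and processed copies, and a change in abundant genes shifts all others.

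Genes averaging at least 1 FPKM over the 4 libraries (11039, with 84 of the 88 members) entered the limma fit (version 3.58.1, R 4.3.3) as log2(FPKM + 1), with a mean-variance trend and group as the only term, which understates changes of low genes. P-values were adjusted over all tested genes (Benjamini-Hochberg, threshold 0.05); the fit was tested on simulated data. Lists are described by counts and medians, with no set test. The FPKM step of 1 fragment, read from low genes, had an IVF to SCNT ratio of 1.04 between libraries 1 and 0.973 between libraries 2; absolute depth is unknown.

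Named genes are, per complex, the 2 highest in level, up to 3 with the smallest unadjusted p in each direction and any with an unadjusted p under 0.05, then all Sdh genes, Cyc1, Cycs, tissue forms and their partners, members under the filter, and 2 genes per pathway list; 1 member is counted but not reported here or drawn. The members and lists were chosen with earlier results of these data known. Alternatives were other pseudocounts, filters, scalings and priors, the library number as a block, each library left out, Ndufa4 in complex I and, chosen after seeing the data, medians without the tissue forms. Promoter windows and chromosomes came from RefSeq tables of GRCm38.p6 and transcript lengths from GENCODE M21.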

Additional observations from a re-analysis of the deposited data

How the results depend on the processing

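No alternative other than leaving out a library called a member. The members' median stayed above 0 in all 13 alternatives, but not above that of all tested genes. Without IVF library 1 it was 0.0096, against 0.03 for all tested genes, and 53.6% of members lay above 0 (main fit: 91.7%). Of the 43 named and tested genes, 29 kept their direction throughout. Cox8c, Cox7b2 and Slc25a31 were called only in the fit without IVF library 1. They reached the filter only through IVF, so those calls are no support for a difference. Without a filter, 3 members had an unadjusted p under 0.05 (limma) in the higher direction (all genes: 4.01%). A filter at 5 FPKM removes Cox8c and Cox7b2. With it, 0 members had such a p in the lower direction (all genes: 2.1%). Wholly below IVF lay 1 member, Cox6b2 (all genes: 12.9%). Scaling without short RNA genes turned the medians of the biogenesis list (-0.0053) and the citric acid cycle list (-3.38e-06) and Sdhb (-0.024), and quantile normalization turned Uqcr10 (-0.039); the cause was not tested.

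With a replicate block by library number, 18 members had an unadjusted p under 0.05 in the higher direction (all genes: 9.58%, up from 4.25%) and 3 in the lower (all genes: 7.02%), and none was called. Differences of library 2 and library 1 correlated between IVF and SCNT at r = 0.309 over all tested genes and 0.849 over the members, but the labels do not say what a number shares, and with 2 pairs the numbers were not taken to pair the libraries.

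With each library left out in turn, one arm holds a lone library assumed to vary like the rest. Members not overlapping between the groups numbered 31 to 70 higher and 4 to 16 lower. In those fits 32.9% to 38.5% of all genes were not overlapping in the higher and 29.4% to 35.7% in the lower direction, so that 31 of 84, without IVF library 1, is near the background. Medians ranged from 0.0096 to 0.34 for all members, 0.0054 to 0.37 for complex I, 0.053 to 0.41 for complex II, 0.047 to 0.21 for III, -0.0043 to 0.41 for IV, -0.0081 to 0.34 for V, -0.0041 to 0.25 for the complex I core and 0.011 to 0.47 for its accessory subunits. They ranged from -0.0041 to 0.21 for assembly factors, -0.082 to 0.26 for biogenesis, 0.011 to 0.11 for the citric acid cycle and 0.025 to 0.21 for carriers. Genes that turned were Ndufc1 (-0.12 to 0.52), Ndufb7 (-0.084 to 0.050), Sdhb (-0.23 to 0.29), Sdhc (-0.36 to 0.65), Uqcr10 (-0.075 to 0.34), Cox8a (-0.22 to 0.56), Cox6b1 (-0.21 to 0.50), Cox7a2 (-0.18 to 0.51), Cox7a2l (-0.13 to 0.067), Atp5k (-0.017 to 0.46), Atp5g1 (-0.12 to 0.64), Atp5g3 (-0.51 to 0.89), Atp5j2 (-0.27 to 0.20) and Brp44l (-0.55 to 0.0051). Cox8c ranged from -2.40 to -1.63. Without IVF library 2, Cox7b2 and Slc25a31 were under the filter and gave no value; over the other 3 exclusions Cox7b2 ranged from -2.41 to -1.84 and Slc25a31 from -2.21 to -1.33. With pseudocounts of 0.1 and 5, Cox8c was -2.92 and -0.93 and Cox7b2 -3.69 and -0.72.

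Absolute depth is unknown, so counting error at low levels, as for Cox8c and Cox7b2, cannot be given.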

Other observations

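Not all testis-type genes of mitochondrial respiration were lower in SCNT. Cyct, the testis cytochrome c, was listed at 10.9 and 18.9 FPKM in IVF against 20.2 and 39.1 in SCNT, with both SCNT libraries above both IVF libraries, opposite to Cox8c and Cox7b2. Pdha2, the testis form of pyruvate dehydrogenase subunit E1 alpha, was listed at 0.0594 and 0.108 FPKM in IVF against 0.0191 and 0.0180 in SCNT, and Ldhc, the testis lactate dehydrogenase, at 0.470 and 0.282 FPKM in IVF against 0.586 and 0.412 in SCNT. These 3 genes were looked up after the values of the oxidase forms were seen, and no test was made.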
